A study of Homo sapiens with 18 samples.

Results

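Forkhead transcription factors are described here through the 10 of their genes that appear in the deposited comparisons: FOXM1, FOXC1, FOXO1, FOXP4, FOXD2, FOXJ1, FOXS1, FOXE3, FOXA1 and FOXD3. They were taken by symbol from 3 tables that hold 3647 genes in all. RNA was sequenced from Cal51, an established breast cancer cell line, with 3 libraries per group. Cells were treated for 8 h with fenofibrate plus ezetimibe (the combination), ezetimibe alone, fenofibrate alone or DMSO, the solvent that serves as control. Fenofibrate is a fibrate that activates the nuclear receptor PPARα, and ezetimibe blocks the sterol transporter NPC1L1. The labels give no doses. They do not say whether libraries of a group came from separate cultures, so the spread between libraries may be technical. The groups share 1 line, with no other genotype named for these 12 libraries. The other 6 libraries of the series, PKM2 knockout cells and their control, are not analysed here.

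Each table compares 1 treated group with DMSO, always with the same 3 control libraries, and holds just the genes the authors called (log2 fold change beyond 1 in either direction, adjusted p below 0.05). A gene outside a table may have changed less than that, not at all, or have been too low to test, and is written here as not listed. The values are normalised reads, that is, read counts scaled for each library by the authors. The 10 genes were thus selected on the authors' fold change and adjusted p, so their differences from DMSO are given as a description, without p-values. In bulk RNA, fewer cells of a kind and less RNA per cell cannot be told apart.

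Forkhead proteins bind DNA through a shared winged-helix domain, the forkhead box, and mostly recognise sites related to TGTTTAC. The family covers very different tasks: FOXM1 drives the genes of G2 and mitosis, FOXO proteins pass on the state of insulin and AKT signalling, and others set cell identity in development. In breast tissue FOXA1 opens chromatin for the oestrogen receptor in luminal cells, while FOXC1 is a known marker of basal-like tumours.

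The promoters of 4 members are shown because their genes went in opposite directions with the combination: FOXC1 and FOXO1 were lower, FOXA1 and FOXD3 higher. The sequences are from RefSeq on GRCh38.p14, each from 250 bases before to 50 bases after the start of the gene, read 5′ to 3′ on the gene's own strand. FOXC1 lies at chr6:1609665-1609964 (plus strand), FOXO1 at chr13:40666592-40666891 (minus strand), FOXA1 at chr14:37595200-37595499 (minus strand) and FOXD3 at chr1:63322317-63322616 (plus strand). Capitals mark matches on either strand to the GC box GGGCGG, the CCAAT box CCAAT, the E-box CACGTG, the cyclic AMP response element TGACGTCA, the forkhead core TGTTTNC and the cell-cycle element TTTGAA.
FOXC1: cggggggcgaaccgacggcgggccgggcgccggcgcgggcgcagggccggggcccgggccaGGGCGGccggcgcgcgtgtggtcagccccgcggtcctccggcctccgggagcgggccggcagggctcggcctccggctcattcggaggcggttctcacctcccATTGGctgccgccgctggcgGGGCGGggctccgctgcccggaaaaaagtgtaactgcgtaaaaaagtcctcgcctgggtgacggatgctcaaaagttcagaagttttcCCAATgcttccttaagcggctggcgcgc
FOXO1: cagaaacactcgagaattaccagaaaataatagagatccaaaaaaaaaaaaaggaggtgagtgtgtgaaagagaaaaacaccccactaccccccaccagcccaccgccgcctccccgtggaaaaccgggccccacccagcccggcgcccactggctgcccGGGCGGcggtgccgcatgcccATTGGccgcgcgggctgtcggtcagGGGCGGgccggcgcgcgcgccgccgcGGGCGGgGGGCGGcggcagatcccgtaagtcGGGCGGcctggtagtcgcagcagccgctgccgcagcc
FOXA1: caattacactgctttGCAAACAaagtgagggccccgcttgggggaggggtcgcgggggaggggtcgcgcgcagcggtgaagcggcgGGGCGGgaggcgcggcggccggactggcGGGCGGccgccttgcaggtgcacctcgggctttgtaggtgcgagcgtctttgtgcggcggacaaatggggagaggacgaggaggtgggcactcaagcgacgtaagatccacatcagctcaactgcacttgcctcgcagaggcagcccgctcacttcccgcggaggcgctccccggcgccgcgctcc
FOXD3: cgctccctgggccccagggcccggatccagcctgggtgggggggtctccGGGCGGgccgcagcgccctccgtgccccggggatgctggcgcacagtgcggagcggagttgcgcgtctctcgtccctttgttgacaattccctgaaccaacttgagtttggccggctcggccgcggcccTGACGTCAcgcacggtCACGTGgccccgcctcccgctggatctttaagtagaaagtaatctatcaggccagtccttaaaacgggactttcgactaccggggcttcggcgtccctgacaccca

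RefSeq windows were matched for 6 of the 10 members, the 4 printed and those of FOXD2 and FOXP4. All 6 were rich in G and C, from 66.3% in FOXD3 to 76.7% in FOXD2, against a median of 58.7% over 35116 promoters. They held 27 to 40 CpG steps, against a median of 14. The GC box was found in 6 of 6 (45.0% of all promoters hold it), the CCAAT box in FOXC1 and FOXO1 (34.6%), and the E-box in FOXD3 and FOXP4 (7.26%). The cyclic AMP response element was found in FOXD3 alone among the 6 (1.85% of all promoters) and the forkhead core in FOXA1 alone among them (18.0%). The cell-cycle element was found in 0 of the 6 (15.2%). The E-box and the cyclic AMP element of FOXD3 did not overlap. RefSeq and the annotation of the tables put the start of the gene at different positions for all 6. The windows of FOXO1 and FOXP4 span the annotated start, those of FOXC1 and FOXD3 end before it, and those of FOXA1 and FOXD2 lie inside the annotated gene, with the largest shift in FOXD2. These are matches of letters in a fixed window, chosen with the sequences in view.

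The combination table held all 10 members, 8 lower and 2 higher than DMSO. The ezetimibe table held 2, FOXJ1 and FOXS1, both lower, and the fenofibrate table held 0. Of all genes tested (numbers inferred from how adjusted and raw p-values relate), the authors listed 17.6% with the combination, 10.3% as higher and 7.27% as lower. With ezetimibe they listed 3.47%, 2.7% as higher and 0.772% as lower, and with fenofibrate 0.835%, 0.761% as higher and 0.0737% as lower. These shares are background only, since the members were taken from the same lists. In the combination table the treated libraries of 10 of 10 members did not overlap the DMSO libraries, and this held for 99% of the genes in that table. Both members in the ezetimibe table were without overlap, as were 98.3% of its genes, and the share was 98% in the fenofibrate table, which holds 0 members. The median of the authors' log2 fold changes was -1.35 for the 10 members and 1.17 for the whole combination table. A list of 44 forkhead genes gave the same 10, which makes 18.2% lower and 4.55% higher if all 44 are counted as tested. Shares of the other gene lists below are likewise over the whole list, whether or not each gene was tested. The other 34, among them FOXO3, FOXO4, FOXK1, FOXK2, FOXP1, FOXN3 and FOXJ3, were not listed in any table.

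**Figure D1:**
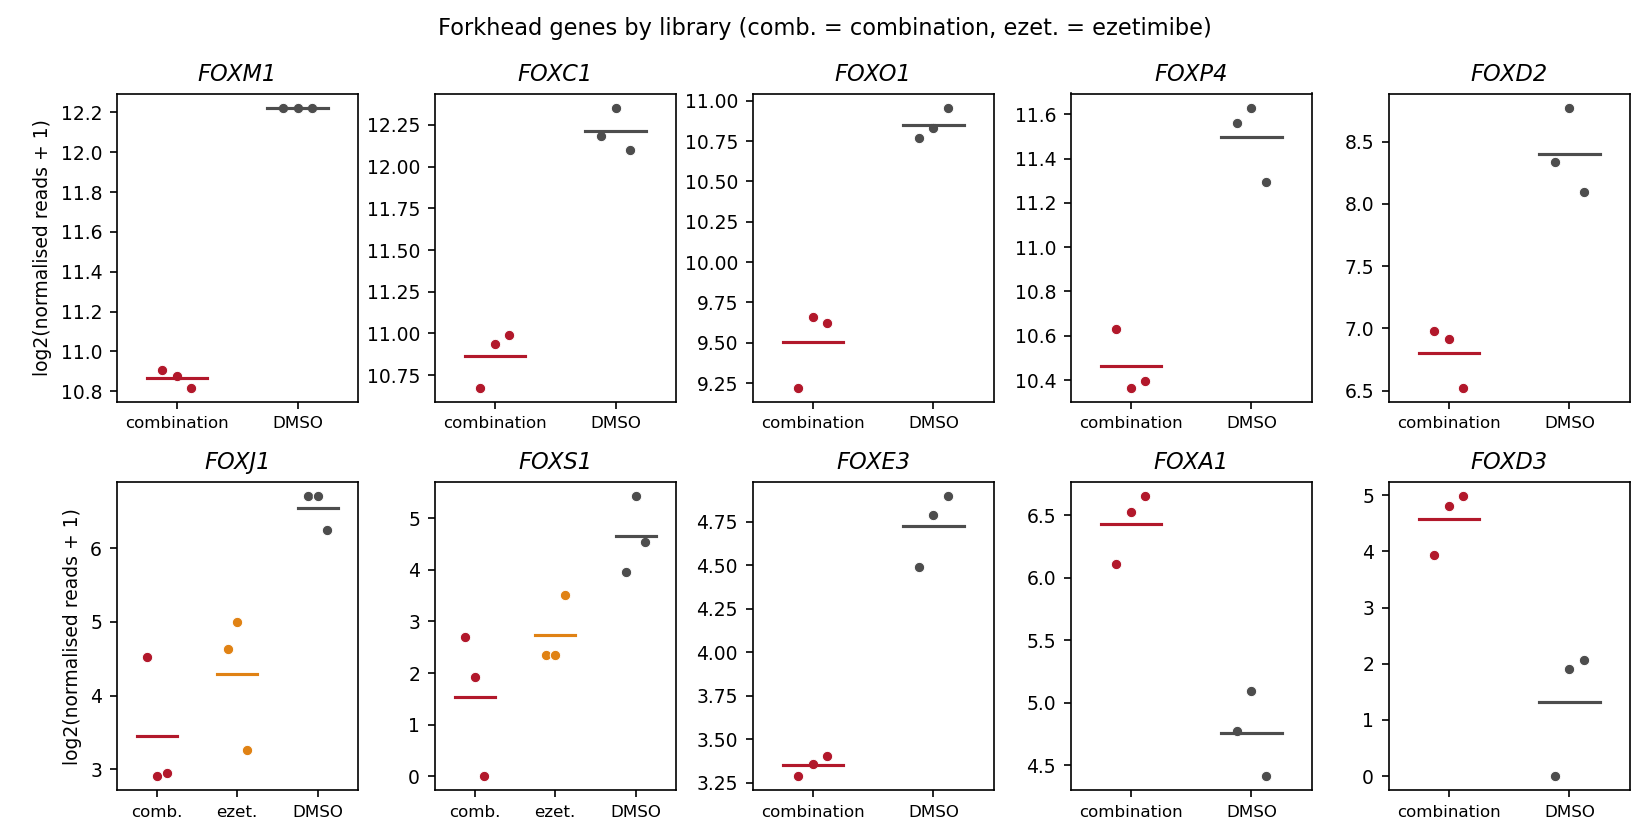
Each panel shows 1 forkhead gene as log2 of normalised reads plus 1, with a point per library and a bar at the group mean, and each panel has its own vertical scale. In all 10 panels the 3 combination libraries sit apart from the 3 DMSO libraries, and ezetimibe is drawn for the 2 genes its table lists.

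FOXM1, the main activator of the G2 and mitosis programme (ENSG00000111206, chromosome 12, 2857681 to 2877155, minus strand, hg38), was second to FOXC1 in level per kb of gene length. It had 1917, 1876 and 1804 normalised reads in the combination libraries, against 4786, 4785 and 4781 in the DMSO libraries. The groups lie far apart, and combination cells held 39.0% of the DMSO level (1866 ± 57.2 against 4784 ± 2.81, SD, n = 3 each). The log2 difference was -1.36 ± 0.09 (limma, SE). The spread of the DMSO libraries is below counting error, whereas the SE draws on all genes of the table. FOXM1 was not listed with either drug alone.

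Genes that FOXM1 is known to activate were followed as a list of 30, chosen with earlier results of these data known. With the combination 11 of 30 (36.7%) were listed as lower and 0 as higher, with a median log2 fold change of -1.31 over those 11. The listing rule puts every listed value beyond 1, and the rest of the list has no value here. Over all genes tested, 7.27% were listed as lower with the combination, 0.772% with ezetimibe and 0.0737% with fenofibrate. SKP2, which marks cell-cycle inhibitors for degradation, had the largest fall of the 11 (801 ± 118 in combination cells, 3106 ± 179 in DMSO cells). ANLN, a scaffold of the cytokinetic ring, had 1867 ± 491 in combination cells and 6609 ± 962 in DMSO cells. TOP2A, the topoisomerase of mitotic chromosomes, had 2873 ± 709 in combination cells and 9703 ± 826 in DMSO cells. With ezetimibe 12 of 30 (40%) were listed as lower and 0 as higher, with a median of -1.12 over those 12, although FOXM1 itself was not listed. Of these 12, 4 were also listed with the combination and 8 were not. Of the 11 combination genes, 7 were not listed with ezetimibe. Among genes listed with 1 of these treatments only, the smallest falls were -1.03 (ezetimibe) and -1.01 (combination), close to the listing threshold. Such a gene may have fallen slightly less with the other treatment, so the listing does not show that different genes fell. TOP2A had 4104 ± 175 in ezetimibe cells and 9728 ± 819 in DMSO cells. With fenofibrate 1 of 30 was listed as lower, the kinetochore motor CENPE (606 ± 157 in fenofibrate cells, 1337 ± 207 in DMSO cells). The 3 comparisons share their DMSO libraries.

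Factors that control FOXM1, a list of 20 cyclins, kinases and regulators, had 7 members lower (35.0%) and 1 higher (5.00%) with the combination. The shares of all genes tested were 7.27% lower and 10.3% higher. E2F2 and E2F1, which switch on genes of S phase, had log2 fold changes of -2.50 and -2.03 in the authors' deposited table. E2F2 had 183 ± 31.6 in combination cells and 1041 ± 25.2 in DMSO cells, and E2F1 had 495 ± 31.8 in combination cells and 2021 ± 393 in DMSO cells. CDK2, the kinase partner of cyclins E and A, had 374 ± 52.5 in combination cells and 1328 ± 53.8 in DMSO cells. The member on the higher side was CDKN1A, the CDK inhibitor p21 (4770.3 ± 667 in combination cells, 1846 ± 139 in DMSO cells). With ezetimibe 1 of the 20 was listed, the mitotic kinase PLK1, which was lower (1912 ± 137 in ezetimibe cells, 3980 ± 142 in DMSO cells), and with fenofibrate 0.

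Of 15 annotated genes within 100 kb of FOXM1, 3 were listed with the combination, ITFG2, TULP3 and NRIP2, all as higher. Of all genes tested 17.6% were listed, 10.3% as higher, and with 15 genes the count lies near those shares. RHNO1, which overlaps the span of FOXM1, and TEX52, 597 bases away, were not listed. The exons of FOXM1 share 781 bases with those of ITFG2, on the opposite strand, which is 15.9% of the exonic bases of FOXM1. ITFG2 had 1003, 842 and 867 normalised reads in the combination libraries, against 335, 262 and 337 in the DMSO libraries (authors' log2 1.54). TULP3 starts 67 bases away and was also listed as higher (1457 ± 87.9 in combination cells, 719 ± 54.5 in DMSO cells). Whether reads were counted by strand was not given in the sources used here, so reads of the shared bases cannot be assigned, and their part in either value was not tested.

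FOXO1, which is kept out of the nucleus when AKT phosphorylates it (ENSG00000150907, chromosome 13, 40469953 to 40666597, minus strand), had 596, 808 and 788 normalised reads in the combination libraries. The DMSO libraries had 1744, 1819 and 1989. No combination library reached the lowest DMSO library, and the combination level was 39.5% of the DMSO level (731 ± 117 against 1850.2 ± 126). The log2 difference was -1.35 ± 0.13. It shares 269 exonic bases with LINC00598 on its own strand, a non-coding RNA that was also lower at few reads (7.30 ± 2.18 in combination cells, 21.7 ± 1.30 in DMSO cells). FOXO1 was the only member of the FOXO group that any table listed.

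Known FOXO targets were listed mainly as higher, while FOXO1 RNA was lower. Of a list of 32, 11 were higher (34.4%) and 1 lower (3.13%) with the combination. The median log2 fold change of the 12 listed genes was 1.55, and the rest of the list has no value here. Among all genes tested 10.3% were higher and 7.27% lower. GADD45A, a growth arrest gene, had 10433 ± 211 in combination cells and 538 ± 32.6 in DMSO cells, 19.4-fold higher. The autophagy genes GABARAPL1 (725 ± 80.6 in combination cells, 129 ± 12.1 in DMSO cells) and MAP1LC3B (3778 ± 311 in combination cells, 789 ± 94.9 in DMSO cells) were 5.61-fold and 4.79-fold higher. The target on the lower side was SESN3, a stress-responsive inhibitor of mTORC1 signalling (147 ± 24.0 in combination cells, 683 ± 49.8 in DMSO cells). Some of the 11, such as GADD45A and CDKN1A, are also known targets of p53 or of stress pathways. With ezetimibe 0 of the 32 were listed and with fenofibrate 1, TXNIP, an inhibitor of thioredoxin, on the lower side (80.9 ± 13.1 in fenofibrate cells, 425 ± 10.3 in DMSO cells).

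Upstream of FOXO1, 5 of a list of 23 regulators were listed with the combination, 3 lower (13.0%) and 2 higher (8.70%). Of all genes tested 17.6% were listed, 7.27% as lower and 10.3% as higher, and at this list size the counts lie near those shares. With either drug alone 0 of the 23 were listed. AKT1, the kinase that holds FOXO proteins in the cytoplasm, had 993 ± 72.5 in combination cells and 2883 ± 354 in DMSO cells. PIK3R1, the regulatory subunit of PI3 kinase, had 934 ± 250 in combination cells and 2619 ± 197 in DMSO cells. SKP2, named above, is the third on the lower side. The kinases SGK3 (208 ± 67.5 in combination cells, 102 ± 21.8 in DMSO cells) and SGK1 (55.2 ± 15.0 in combination cells, 25.6 ± 5.26 in DMSO cells), relatives of AKT, were higher.

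FOXC1, a regulator of mesenchymal and eye development (ENSG00000054598, chromosome 6, 1609972 to 1613897, plus strand), had 1634, 1961 and 2033 normalised reads in the combination libraries. The DMSO libraries had 4660, 5236 and 4394. The groups did not overlap, and combination cells held 39.4% of the DMSO level (1876 ± 212 against 4763 ± 430, log2 -1.35 ± 0.12). FOXCUT, a non-coding RNA that ends 3892 bases before FOXC1 on the same strand, was lower too. It had 12.1, 6.49 and 9.58 in the combination libraries, against 43.0, 31.2 and 25.6 in the DMSO libraries (log2 -1.73 ± 0.35). FOXF2 and FOXQ1, the other forkhead genes of this chromosome arm end, were not listed.

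FOXP4, a member of the FOXP repressors that act as dimers (ENSG00000137166, chromosome 6, 41546426 to 41602384, plus strand), was the member nearest the listing threshold. It had 1583, 1319 and 1347 normalised reads in the combination libraries, against 3019, 3169 and 2513 in the DMSO libraries. Combination cells held 48.8% of the DMSO level (1416 ± 145 against 2900.3 ± 344, log2 -1.03 ± 0.12), and the groups were apart. The gene of the table closest to the threshold on this side, HAUS1, had a log2 fold change of -1.0002 in the authors' deposited table. The antisense gene FOXP4-AS1, whose span overlaps FOXP4 but shares no exonic base with it, was not listed.

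FOXD2 and FOXE3 lie 17964 bases apart on chromosome 1 and were both lower. FOXD2, known from mesenchymal and kidney development in mice (ENSG00000186564, 47436017 to 47440691, plus strand), had 125, 119.5 and 91.0 normalised reads in the combination libraries. The DMSO libraries had 322, 437 and 273. Even the lowest DMSO library was above every combination library, and the combination level was 32.5% of the DMSO level (112 ± 18.3 against 344 ± 84.0, log2 -1.60 ± 0.20). FOXE3, a lens factor (ENSG00000186790, 47416072 to 47418052, plus strand), rested on few reads: 8, 10 and 10 in the combination libraries, against 22, 29 and 27 in the DMSO libraries. After scaling it stood at 9.20 ± 0.407 in combination cells and 25.6 ± 3.76 in DMSO cells (log2 -1.38 ± 0.31). With 5 in place of 1 added before the logarithm its log2 difference was -1.10.

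Between them lies the non-coding RNA FOXD2-AS1, on the opposite strand and 1375 bases before FOXD2. It had 66.9, 63.9 and 75.7 normalised reads in the combination libraries, against 257, 222 and 192 in the DMSO libraries (log2 -1.68 ± 0.18). FOXE3, FOXD2-AS1 and FOXD2 were thus all lower, with no overlap of groups. Of the other 4 annotated genes within 100 kb of FOXD2, 0 were listed. Of all genes tested 17.6% were listed, so 4 genes are too few to compare.

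**Figure D2:**
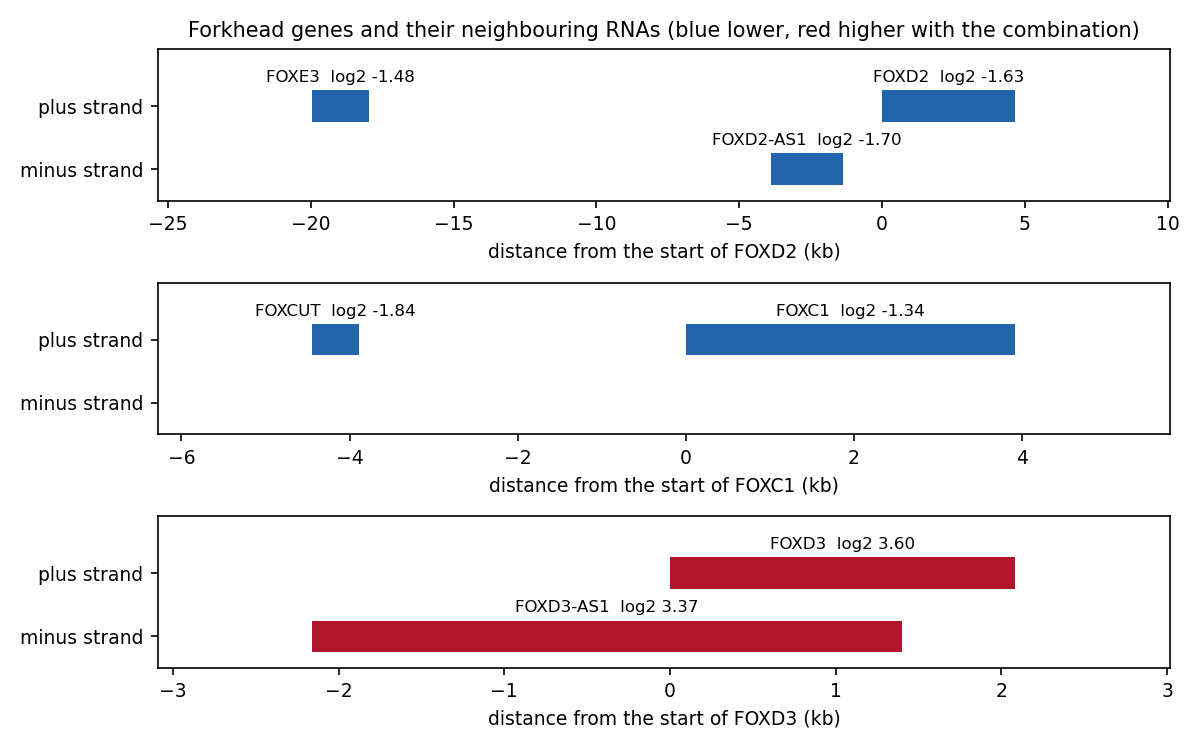
Bars show gene spans by distance in kb from the start of the named forkhead gene, drawn on their strand and coloured by direction in the combination table, with the authors' log2 fold change beside each name. The FOXD2 and FOXC1 neighbourhoods hold lower transcripts only among those drawn, while FOXD3 and FOXD3-AS1, which overlap, were both higher.

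FOXJ1, the switch for motile cilia (ENSG00000129654, chromosome 17, 76136333 to 76141299, minus strand), was lower both with the combination and with ezetimibe. It had 21.9, 6.49 and 6.70 normalised reads in the combination libraries and 23.7, 31.0 and 8.55 in the ezetimibe libraries. The DMSO libraries had 104, 104 and 74.7 on the combination table's scale. Every treated library lay below every DMSO library, and combination replicate 1 and ezetimibe replicate 3 stood apart from the other two of their groups. The combination level was 12.5% of DMSO (11.7 ± 8.85 against 94.0 ± 16.7, log2 -3.10 ± 0.43) and the ezetimibe level 22.4% (21.1 ± 11.4 against 94.2 ± 16.8, log2 -2.26 ± 0.38).

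FOXS1, known from sensory neurons and vessel-associated cells in mice (ENSG00000179772, chromosome 20, 31844301 to 31845619, minus strand), was also lower than DMSO with both treatments, at fewer reads. The recovered reads were 5, 3 and 0 in the combination libraries, 4, 4 and 11 in the ezetimibe libraries, and 15, 46 and 21 in the DMSO libraries. Treated libraries were all below the DMSO libraries, which themselves ranged widely. The means were 2.75 ± 2.74 normalised reads in combination cells (log2 -3.11 ± 0.66) and 6.23 ± 3.65 in ezetimibe cells (log2 -1.91 ± 0.50). On their 2 tables' scales the DMSO means were 26.4 ± 14.2 and 26.5 ± 14.3. Without combination replicate 3, the library with 0 reads, the log2 difference of combination and DMSO was -2.34, and with 5 added before the logarithm it was -1.99.

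Whether the combination went beyond ezetimibe alone was tested for these 2 genes, since the listing against DMSO does not fix that difference. Limma was fitted on the 359 genes of both tables, put on 1 scale through the DMSO libraries. It called 227 of them (63.2%) different between combination and ezetimibe (191 higher, 36 lower). All 359 had been listed as different from DMSO with both treatments. The SEs and the adjustment thus rest on selected genes, and adjusted p may be lower than in a fit on all genes. FOXJ1 was not called: combination minus ezetimibe was -0.83 ± 0.49 on the log2 scale (95% interval -1.895 to 0.23, limma adjusted p = 0.155). FOXS1 was not called either, at -1.20 ± 0.70 (interval -2.71 to 0.31, limma adjusted p = 0.150). Both intervals include no difference as well as a large further fall. These outcomes rest on single libraries. Without combination replicate 1 both genes passed, FOXJ1 at -1.37 (limma adjusted p = 0.0178) and FOXS1 at -1.78 (limma adjusted p = 0.0425). Without ezetimibe replicate 3 FOXJ1 passed at -1.35 (limma adjusted p = 0.0208). Over all alternatives the adjusted p ranged from 0.0178 to 0.462 for FOXJ1 and from 0.0425 to 0.550 for FOXS1.

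Genes of motile cilia that act with or under FOXJ1, a list of 25, showed 2 lower and 2 higher with the combination (8.00% each way). With all 25 counted as tested, these shares are near those of all genes tested, 7.27% lower and 10.3% higher. With either drug alone 0 of the 25 were listed. TP73, a p53 relative needed for ciliated cells, was lower (35.4 ± 4.10 in combination cells, 295 ± 57.7 in DMSO cells), as was the calcium-binding CAPS (67.3 ± 9.17 in combination cells, 243 ± 77.5 in DMSO cells). CCDC78, of the centriole amplification machinery, was higher (219 ± 7.67 in combination cells, 78.4 ± 7.81 in DMSO cells). The axonemal dynein DNAH5 was higher from few reads (35.7 ± 2.30 in combination cells, 6.84 ± 5.23 in DMSO cells).

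FOXA1, the pioneer factor of luminal breast cells (ENSG00000129514, chromosome 14, 37589984 to 37596059, minus strand), was higher with the combination. It had 68.0, 90.8 and 99.6 normalised reads in the combination libraries, against 26.4, 33.1 and 20.3 in the DMSO libraries. The lowest combination library was above the highest DMSO library, and the level was 3.24-fold higher (86.1 ± 16.3 against 26.6 ± 6.39, log2 1.67 ± 0.27). It remained low beside FOXC1: per kb of gene length, combination cells held 21.6 ± 4.10 normalised reads of FOXA1 and 478 ± 54.1 of FOXC1.

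Among 19 luminal genes and partners of FOXA1, 3 were higher (15.8%) and 1 lower (5.26%) with the combination. GATA3, which works with FOXA1 at luminal enhancers, had 104 ± 10.5 in combination cells and 25.1 ± 9.18 in DMSO cells. Its ezetimibe value was 53.2 ± 4.91, against 25.1 ± 9.21 in DMSO cells. XBP1, a factor of the unfolded protein response, had 7102 ± 681 in combination cells and 1747 ± 58.3 in DMSO cells, and 3801 ± 167 in ezetimibe cells against 1751 ± 57.2 in DMSO cells. The oestrogen-responsive GREB1 was higher from few reads (56.2 ± 23.7 in combination cells, 10.6 ± 4.78 in DMSO cells). The carbonic anhydrase CA12 was lower (784 ± 19.7 in combination cells, 2241 ± 97.5 in DMSO cells). ESR1, the oestrogen receptor itself, was not listed. Of 14 basal breast genes 3 were higher (21.4%) and 0 lower, among them the keratin KRT17 (269 ± 44.4 in combination cells, 38.6 ± 4.13 in DMSO cells) and the receptor EGFR (4750.3 ± 1340.0 in combination cells, 1338 ± 24.6 in DMSO cells). Over all genes tested 10.3% were listed as higher, and at these list sizes the difference from that share is 1 or 2 genes.

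FOXD3, a factor of the neural crest and of pluripotent cells (ENSG00000187140, chromosome 1, 63323041 to 63325126, plus strand), was close to 0 in DMSO cells. Its recovered reads were 13, 29 and 32 in the combination libraries, against 0, 3 and 3 in the DMSO libraries. The groups did not overlap, and the scaled means were 23.9 ± 8.59 in combination cells and 1.99 ± 1.73 in DMSO cells, a ratio of 12.0 that rests on 6 DMSO reads. The log2 difference was 3.25 ± 0.58. It was 2.58 without DMSO replicate 1, the library with 0 reads, and 2.03 with 5 added before the logarithm.

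FOXD3-AS1, transcribed from the opposite strand, had 25, 19 and 28 recovered reads in the combination libraries and 3, 1 and 3 in the DMSO libraries (log2 2.95 ± 0.43). The gene spans overlap by 1401 bases and their exons by 179 bases, 8.58% of FOXD3. Since it is not known here whether reads were counted by strand, reads of the shared bases cannot be assigned. ALG6, a sugar transferase gene within 100 kb, was listed as lower (log2 -1.09 in the authors' deposited table). Of 17 neural crest factors 3 were higher and 3 lower with the combination (17.6% each way), against 10.3% and 7.27% of all genes tested. MYC (7419 ± 85.9 in combination cells, 1202 ± 62.4 in DMSO cells), ETS1 (2550 ± 360 in combination cells, 660 ± 66.8 in DMSO cells) and MSX2 (71.3 ± 20.1 in combination cells, 16.8 ± 6.94 in DMSO cells) were higher. MSX1 (1987 ± 221 in combination cells, 10246 ± 1141 in DMSO cells), SOX5 (74.1 ± 8.81 in combination cells, 303 ± 76.9 in DMSO cells) and ID3 (519 ± 68.7 in combination cells, 3173 ± 373 in DMSO cells) were lower. ID3 was also the 1 member of this list in the ezetimibe table (623 ± 28.0 in ezetimibe cells, 3182 ± 377 in DMSO cells).

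**Figure D3:**
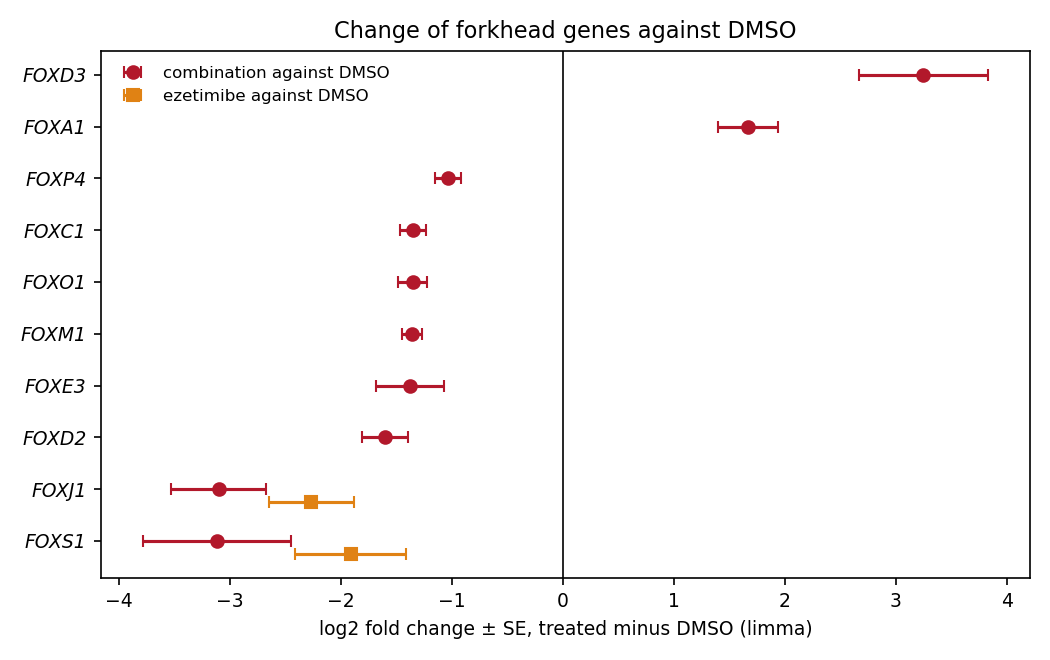
Points show limma log2 fold changes with SE, treated minus DMSO, for the combination (circles) and, where listed, ezetimibe (squares). FOXM1, FOXC1 and FOXO1 sit close together near -1.35, FOXJ1 and FOXS1 lie lowest with wide errors, and FOXA1 and FOXD3 are on the higher side.

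FOXM1, FOXC1 and FOXO1 were alike in the size of their change, with log2 differences that lay closer to each other than the smallest of their SEs (0.09). Per kb of gene length, the order in combination cells was FOXC1 (478 ± 54.1), FOXM1 (381 ± 11.7), FOXP4 (229.5 ± 23.5), FOXO1 (117 ± 18.8), FOXD2 (23.9 ± 3.90), FOXA1, FOXD3 (11.5 ± 4.12), FOXE3 (4.65 ± 0.21), FOXJ1 (4.43 ± 3.35) and FOXS1 (2.09 ± 2.08). Libraries of FOXD2 and FOXA1 overlapped, as did those of FOXE3 and FOXJ1 and of FOXJ1 and FOXS1, so these neighbours are not ordered. In DMSO cells the first 5 were the same, from FOXC1 (1213 ± 109.5) to FOXD2 (73.6 ± 18.0), followed by FOXJ1 (35.6 ± 6.32), FOXS1 (20.04 ± 10.8), FOXE3 (12.9 ± 1.899), FOXA1 (6.67 ± 1.60) and FOXD3 (0.952 ± 0.831). There the libraries of FOXJ1 and FOXS1 and of FOXS1 and FOXE3 overlapped. FOXC1, FOXM1, FOXP4 and FOXO1 made up 94.6% of the summed level per kb of the 10 in combination cells and 95.2% in DMSO cells. The sum itself was 1274 in combination cells and 3107 in DMSO cells.

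Gene build differed among the members, from FOXP4 with up to 17 exons in a transcript, FOXM1 with 10 and FOXO1 with 4 to genes of a single exon. The annotation gives no intron to 5 of the 10 (FOXC1, FOXD2, FOXS1, FOXE3 and FOXD3), against 7 of the other 34 forkhead genes (20.6%) and 2.44% of the 2741 protein-coding genes in the combination table. At 95% identity over at least 100 bases, transcripts of 4 members matched another gene. FOXM1 matched its overlapping neighbour ITFG2 over 652 bases and FOXO1 matched LINC00598 over 272 bases, both of which were listed. FOXD2 matched FOXD1 over 320 bases and FOXC1 matched FOXC2-AS1 over 147 bases, and neither of these partners was listed.

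Genes with the most similar profiles were found by the root mean square difference of DMSO-centred log2 values, over 6 libraries and 2098 other protein-coding genes of the combination table with a mean of at least 50. Among those nearest to FOXM1 was STRIP2 (difference 0.04, 134 ± 8.76 in combination cells, 344 ± 5.76 in DMSO cells). Nearest to FOXC1 were the secreted kinase gene PKDCC (0.03) and KCTD1 (0.06), and nearest to FOXO1 were PRR11 (0.05) and PLK4, the kinase of centriole duplication (0.06). FOXP4 was closest to the galactokinase GALK1 (0.02) and BCAM (0.03), FOXD2 to TMEM121 and KYAT1 (0.11 and 0.12), and FOXA1 to KCTD12 and AHNAK2 (0.15 and 0.17). For FOXJ1, over 9 libraries and 256 genes, the nearest were the water channel AQP1 (0.58) and TMSB15A (0.63), at larger distances than for the other members named here.

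**Figure D4:**
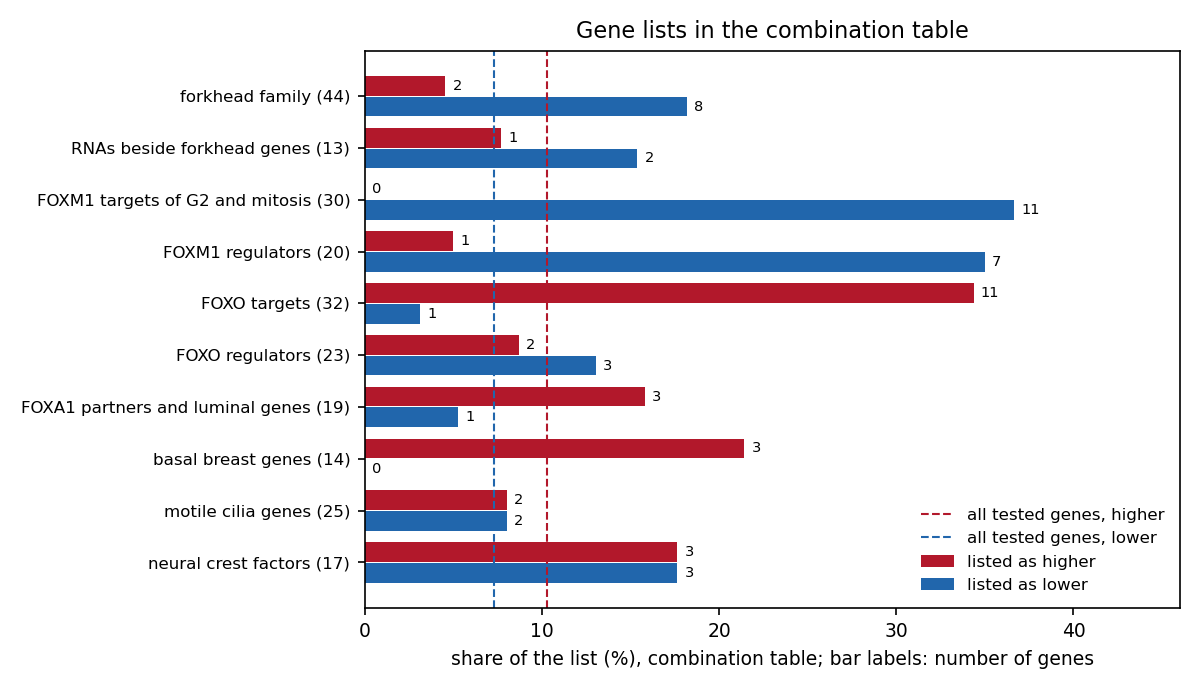
Bars show the share of each gene list (size in brackets) that the combination table listed as higher or lower, with the number of genes at the bar end, and dashed lines show the same shares over all genes tested. FOXM1 targets and regulators stand mainly on the lower side, FOXO targets on the higher side, and the cilia and neural crest lists are even. The lists share genes, so the bars are not separate observations. Both FOXM1 lists have listed genes in common, and CDKN1A counts among FOXM1 regulators and FOXO targets.

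Markers of the line and of other cell types could be read only where a table listed them. Of 5 epithelial, 5 immune and 2 red cell markers 0 were in any table, so the epithelial label of the line could not be checked. Of 3 fibroblast markers the combination table held 2, COL1A1 and PDGFRA, whose summed level was 251 to 284 in combination libraries and 926 to 1228 in DMSO libraries. Of 4 endothelial markers the ezetimibe table held 1, CDH5, at 6.65 to 13.4 in ezetimibe libraries and 19.6 to 38.7 in DMSO libraries. Their part in the values of the forkhead genes was not tested. Summed over listed genes, reads per library ran from 2550718 to 3265200 (combination table) and from 185127 to 339263 (ezetimibe table). Full depth is unknown.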

How the data were processed

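RNA-seq values came from 12 libraries of 4 groups, assigned by the labels' titles. HISAT2 2.0.5, featureCounts 1.5.0-p3, fastp and hg38 appear in the submitters' processing notes. What the authors used to compare groups was not given in the sources used here. The deposited signal is read counts scaled by the authors, with 1 factor per library and table: from the values, 1 read was worth 0.892 to 1.12, and 100% of values came within 0.001 of a whole read. Each gene's log2 fold change, p-values and length (other) are the authors', per the file headers. The DMSO libraries held equal reads in all tables (1452 of 1452 comparisons).

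The members and gene lists were chosen with earlier results of these data known. Named genes are the members, the RNAs beside them, the 2 genes with the most similar profile, and of each list all listed genes or, above 6, the 3 largest rises and falls in the combination table with a mean of at least 50. PLK1 in the ezetimibe table, CENPE and TXNIP followed as the listed genes of their table. ITFG2, TULP3, NRIP2, RHNO1, TEX52, LINC00598, ALG6, FOXO3B, DUSP15 and FILNC1 were named after their values were seen. The values of 2 genes that the rule names are not reported here.

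Limma 3.58.1 (R 4.3.3, with trend) was fitted on log2 of the value plus 1 over all genes of a table, which draws changes of low genes towards 0, with Benjamini-Hochberg adjustment and a threshold of 0.05 (2-sided). The script was tested on simulated data. Numbers of genes tested, 12215 for fenofibrate, 13596 for ezetimibe and 19944 for the combination, were inferred from ratios of adjusted to raw p-values. They gave whole ranks within 0.02 for 58.8%, 89.1% and 89.7% of the p-values used, so the fenofibrate number is the least certain. Positions equal GENCODE release 29 for 3508 of 3508 genes of the combination table, and transcripts were aligned with BLAST 2.17.0. Alternatives were other pseudocounts, a minimum mean, unscaled reads, the replicate number as a block, leaving out each library, and edgeR 4.0.16 and DESeq2 1.42.0 on recovered reads of the combination table.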

Additional observations from a re-analysis of the deposited data

How the results depend on the processing

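Across 148 recomputed log2 differences of members from DMSO, 0 changed sign and 145 moved by less than the spread between replicates. The 3 that moved more were those of FOXD3 (2.03), FOXS1 (-1.99) and FOXE3 (-1.10) with 5 added before the logarithm, all genes of few reads. Treated and DMSO libraries of the members did not overlap, so leaving out a library or changing the pseudocount could not change a sign. The replicate block and the minimum mean leave a log2 difference as it was. These counts are thus no test of the direction of change. With a minimum mean of 50, which tests fewer genes, 1 forkhead gene was higher with the combination, in place of 2, 6 were lower, in place of 8, and 1 was lower with ezetimibe, in place of 2. Genes higher with the combination went to 1, in place of 2, among FOXO regulators and among cilia genes, and to 0, in place of 1, among RNAs beside forkhead genes, of which 1 was lower, in place of 2. Luminal genes higher with ezetimibe went to 1, in place of 2. Limma called 2303 genes in place of 3508 (combination) and 295 in place of 471 (ezetimibe). Only 2303 and 296 genes of these tables met the minimum, so the drop is that of genes removed beforehand. On the recovered reads of the combination table edgeR called 3508 and DESeq2 3506 of the 3508 listed genes, but the authors had chosen these genes by such a call on the same libraries, so the counts do not check the choice of tool. Leaving out 1 library gave -1.37 to -0.48 for FOXJ1 and -1.78 to -0.43 for FOXS1 as combination minus ezetimibe. Replicate numbers did not pair the libraries: in the combination table same-numbered deviations correlated at 0.09, -0.33 and 0.16. Pairs of unlike number ran from -0.33 (combination 1 with DMSO 3) to 0.34 (combination 2 with DMSO 3), so some libraries were alike across numbers. With the replicate block, combination minus ezetimibe was -0.83 (FOXJ1, limma adjusted p = 0.0974) and -1.20 (FOXS1, limma adjusted p = 0.192), and neither call changed. The minimum mean of 50 left no value for either gene in that comparison. Count tests on ezetimibe libraries were not run, although 100% of their values also came within 0.001 of a whole read, and the effect of that choice was not tested. Comparisons with fenofibrate were not run, as its table holds 0 members. An exact permutation test of 3 against 3 libraries cannot go under p = 0.1 and was not used. Counting error limits FOXE3, FOXS1, FOXD3 and FOXJ1 most.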

Other observations

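Further rows of the combination table carry a forkhead name without coding for a family member. FOXO3B, a processed pseudogene on chromosome 17, had 160, 239 and 264 normalised reads in the combination libraries, against 68.4, 56.9 and 84.3 in the DMSO libraries (authors' log2 1.67). Its transcript is 99.1% identical to FOXO3 over 1928 bases, and FOXO3 itself was not listed. How reads that match both were counted is not known here. This value may therefore include reads of the parent, and their share was not tested. FILNC1, a non-coding RNA named as FOXO-induced, had 0 reads in each of the 3 combination libraries, against 8, 2 and 10 in the DMSO libraries. DUSP15, a phosphatase gene 2017 bases from FOXS1 on the same strand, had 53.7, 37.1 and 27.8 normalised reads in the combination libraries, against 4.88, 4.59 and 4.27 in the DMSO libraries, so it was higher where FOXS1 was lower.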
